A study of Mus musculus with 20 samples.

Results

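The genes described here are 10 transcripts that cells raise when proteins misfold in the endoplasmic reticulum (ER) or when translation initiation is restrained. They were found by symbol among the 57010 genes of the count table. Of these, 5 belong mainly to the integrated stress response (Atf4, Ddit3, Trib3, Asns and Chac1) and 5 to the unfolded protein response of the ER (Hspa5, Xbp1, Sdf2l1, Creld2 and Dnajb9). All 10 passed the count filter in both tissues. The symbol Ddit3 is carried by a pair of identifiers, and the one with 0 counts in all 20 libraries was left aside.

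Livers and kidneys came from UM-HET3 males, a stock bred for genetic diversity, so that no animal is a genetic copy of another. The mice were 12 months old and received 7c or vehicle for 28 days from osmotic pumps placed under the skin. The 7c cocktail holds repsox, tranylcypromine, DZNep, CHIR99021, forskolin and TTNPB, each at 0.1 mg/kg/day, and valproate at 1 mg/kg/day, and the vehicle was DMSO with PEG300. Every mouse carried a pump, assigned at random, and lived alone in its cage afterwards. Each tissue gave 6 libraries of 7c mice and 4 of vehicle mice, and the comparison of 7c with vehicle asks whether the cocktail moved the stress genes in either organ. Bulk tissue RNA cannot tell fewer cells of a type from less RNA per cell.

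Total counts ran from 28383359 to 34153084 in liver, with all 7c livers (28383359 to 30571119) below all vehicle livers (31670440 to 34153084), and from 27855849 to 64872451 in kidney. The tissue labels were checked with marker genes. Of 7 kidney markers, 5 were at 0 in all vehicle livers and 6 in all 7c livers, and their summed level was 0.393 to 1.76 CPM (counts relative to the scaled library size) in liver against 35413 to 70937 CPM in kidney. The 6 liver markers summed to 72104 to 103675 CPM in liver and 2115 to 2937 CPM in kidney. In vehicle kidneys Ttr averaged 156, Alb 27.5, Apoa1 3.82, Serpina1c 1.06 and Cps1 0.908 CPM with all libraries scaled together. Most of the kidney sum thus lies in the remaining marker, Cyp2e1.

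The ER folds secreted and membrane proteins. When unfolded protein accumulates there, the sensors IRE1, PERK and ATF6 are released, and together they raise chaperones and degradation factors and slow new translation. PERK is also one of the kinases of eIF2, and phosphorylated eIF2 lowers general translation while allowing ATF4 to be made, which then drives genes of amino acid supply and, through CHOP, of cell death. Liver exports large amounts of plasma protein and is rich in rough ER.

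On GRCm39 the ATF4 branch genes lie at chr15:80139372-80141745 (Atf4, plus strand), chr10:127124268-127132163 (Ddit3, plus), chr2:152179337-152191958 (Trib3, minus), chr6:7671667-7728461 (Asns, minus) and chr2:119180757-119184866 (Chac1, plus). The ER genes lie at chr2:34661982-34668880 (Hspa5, plus), chr11:5470606-5483027 (Xbp1, plus), chr16:16948002-16950252 (Sdf2l1, minus), chr15:88703795-88710890 (Creld2, plus) and chr12:44252341-44257171 (Dnajb9, minus). All 10 are protein-coding, no 2 of them overlap, and Ddit3, Trib3, Asns, Hspa5, Xbp1 and Dnajb9 overlap at least 1 annotated gene on the opposite strand.

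Promoter sequences of all 10 genes were taken from RefSeq windows (GRCm38.p6) that run from 250 bases before the start site to 50 after it, and each window was placed on GRCm39 by an exact and unique match. The windows were searched on both strands for the ER stress element ERSE, for ERSE-II, for the unfolded protein response element, and for the core of the composite element bound by ATF4 with C/EBP proteins. The first 3 share the letters CCACG, and no window of the 10 genes held more than 1 of the 4 motifs. ERSE was present in Hspa5 and Creld2 and in 0.119% of all 32851 windows. The ATF4 core was present in Asns, Chac1 and Trib3 and in 3.97% of all windows. The unfolded protein response element, held by 0.676% of windows, and ERSE-II, held by 0.0365%, were found in none of the 10 genes. A match of letters is not evidence of binding, and a window without one says nothing about the factor.

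The 5 sites that matched are shown because Hspa5 and Creld2 return below as the pair with the highest r in liver, and because Asns, Chac1 and Trib3 carry the ATF4 core. Each is 30 bases, read 5′ to 3′ on the strand of the gene, with the fixed bases of the motif in capitals. On GRCm39 they lie at chr2:34662032-34662061 (Hspa5, plus strand), chr15:88703718-88703747 (Creld2, plus), chr6:7693214-7693243 (Asns, minus), chr2:119181519-119181548 (Chac1, plus) and chr2:152185948-152185977 (Trib3, minus).
Hspa5, ERSE: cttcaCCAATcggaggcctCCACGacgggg
Creld2, ERSE read on the opposite strand: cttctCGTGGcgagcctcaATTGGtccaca
Asns, ATF4 core: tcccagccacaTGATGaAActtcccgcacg
Chac1, ATF4 core read on the opposite strand: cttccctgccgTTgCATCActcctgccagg
Trib3, ATF4 core read on the opposite strand: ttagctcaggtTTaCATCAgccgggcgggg
The match in Hspa5 begins 65 bases before the RefSeq start site, that in Creld2 126, that in Asns 23 and that in Chac1 193, and the Trib3 match begins at base 15 after it. In the GENCODE annotation, where some transcripts start further upstream, the Hspa5, Asns, Chac1 and Trib3 sites lie within an untranslated exon of at least 1 transcript, and the Creld2 site lies outside the exons.

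The 10 genes were not changed past the threshold by 7c in either organ. In liver 0 of 10 and in kidney 0 of 10 passed an adjusted p of 0.05 in edgeR's quasi-likelihood test, and 0 of 10 passed for the difference of the 7c effect between the organs, where 0 of 10 had an unadjusted p under 0.05 (all genes: 2.49%). Among all genes tested, 1 of 15012 passed in liver (0.00666%), 0 of 17749 in kidney (0%) and 1 of 14163 for the difference between organs (0.00706%). DESeq2 called 6 genes of all in liver, 18 in kidney and 16 for the difference between organs, the likelihood ratio test 7, 14 and 22, and limma-voom 1, 2 and 0. None of these calls was 1 of the 10, but for the difference between organs DESeq2 gave no adjusted p for 6 of them (Ddit3, Trib3, Asns, Chac1, Sdf2l1 and Creld2). At an unadjusted p under 0.05 the count was 0 of 10 in liver, against 3.76% of all genes, and 1 of 10 in kidney, against 2.61% of all genes. For none of the 10 did the 7c and vehicle libraries fall into ranges that do not overlap, as they did for 0.719% of genes in liver and 0.716% in kidney.

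**Figure D1:**
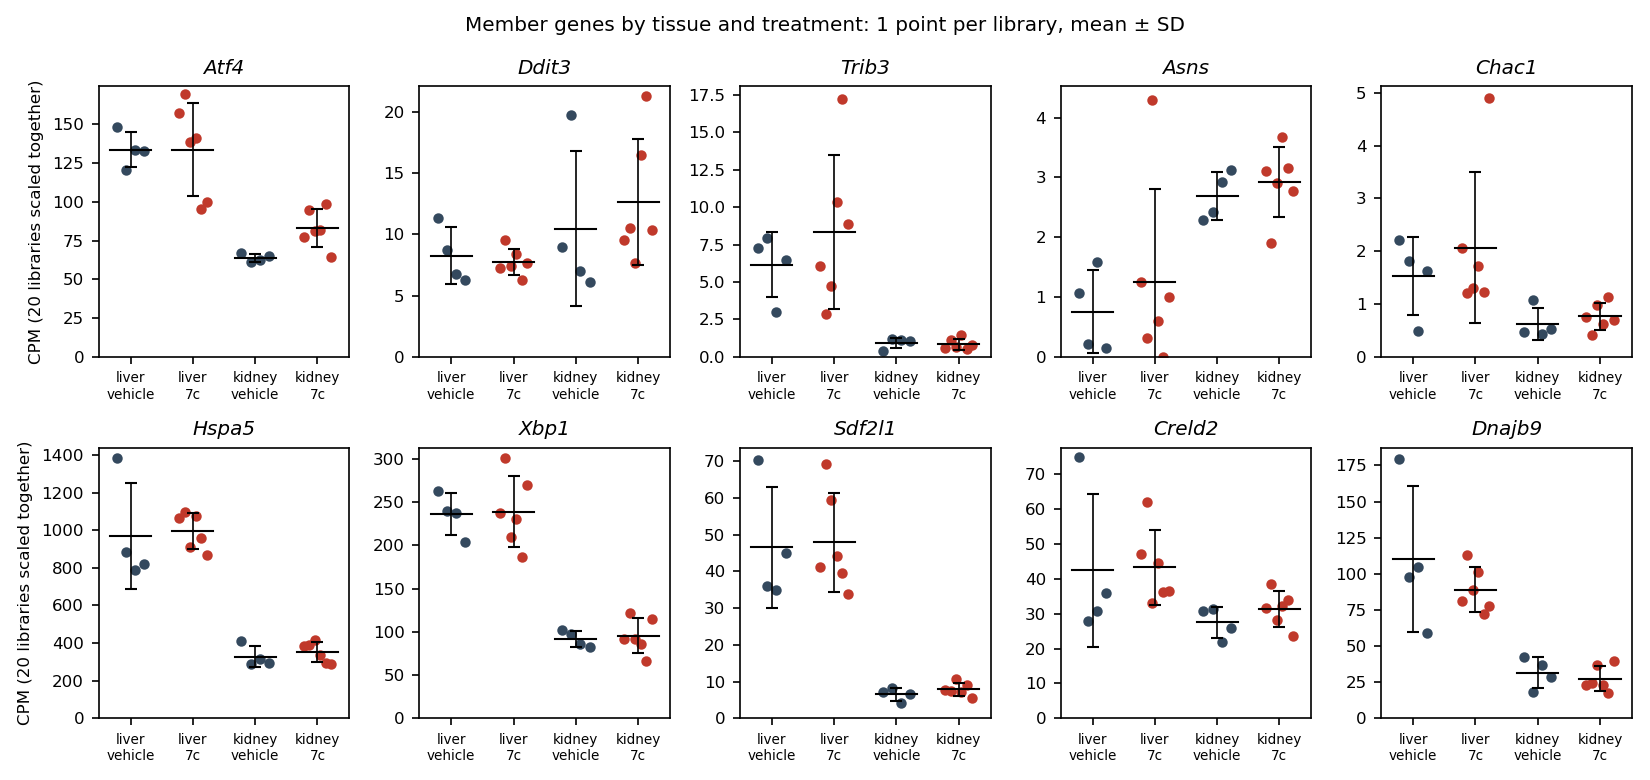
Level of each gene in CPM (y axis, linear, from 0) in the 4 groups of libraries, 1 point per library, with the mean as a bar and the SD as whiskers, all 20 libraries scaled together (n = 4 vehicle and 6 7c per tissue). Groups differ mainly by tissue: Sdf2l1, Trib3, Hspa5, Xbp1, Dnajb9 and Atf4 sit lower in vehicle kidney than in vehicle liver, Asns sits higher, and the 7c and vehicle points overlap for every gene within a tissue.

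Atf4, the transcription factor at the centre of the integrated stress response, gave the smallest p of the 10 and did so in kidney. In the vehicle kidneys it measured 83.9, 75.8, 78.3 and 81.1 CPM (mean 79.8 ± 3.50, SD, n = 4), on libraries scaled within the tissue. The 7c kidneys had a lowest value of 80.9, a median of 101 and a highest of 123 CPM (mean 103 ± 15.0, SD, n = 6). Of the 6, 5 lay above every vehicle kidney and replicate 6 lay within their range, a pattern of at least 5 that 1.65% of all tested genes had. The log2 fold change was 0.37 (SE 0.12, 95% interval 0.11 to 0.63), with an unadjusted edgeR p of 0.00942 and an adjusted p of 0.997. It stayed between 0.32 and 0.43 with any 1 library left out. In liver the vehicle values were 120, 94.8, 110 and 109 CPM, and the 7c values ran from 75.9 over a median of 113 to 135. Both the 2 lowest and the 2 highest livers for Atf4 were 7c livers, and the log2 fold change was -0.027 (SE 0.16, 95% interval -0.36 to 0.31). The difference of the 7c effect between kidney and liver was 0.41 on the log2 scale (SE 0.21, 95% interval -0.019 to 0.84), with an unadjusted p of 0.0603 and an adjusted p of 1.00 in edgeR's interaction test, and was 0.27 without 7c replicate 5. ATF4 protein is set largely by translation, which RNA counts do not show.

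Markers of other cell types were measured beside Atf4 in kidney, and 0 of 5 adipocyte and 0 of 6 liver markers passed the adjusted threshold in edgeR. At an unadjusted p under 0.05 (all genes: 2.61%), 4 of the 5 were higher and 3 of the 6 lower with 7c. Of the plasma cell markers 0 of 6 tested had such a p, of the blood markers 0 of 5, and of the skeletal muscle, adrenal and pancreas markers 0 of 1 each. The 5 adipocyte markers summed to 28.6 to 116 CPM in 7c kidneys (median 62.0) and 25.2 to 55.9 CPM in vehicle kidneys (median 31.0). Cidec, Plin1, Adipoq and Lep, the 4 that were higher, averaged 7.86, 5.56, 5.49 and 0.869 CPM with 7c. With vehicle they averaged 1.36, 0.986, 1.32 and 0.194 CPM. Most of the vehicle sum was thus Car3, which averaged 7399 CPM in vehicle livers with libraries scaled together. All 5 adipocyte markers were detected in both groups, and Adipoq was 1.67 to 11.4 CPM in 7c and 0.111 to 2.51 CPM in vehicle kidneys. The 6 liver markers summed to 2115 to 2882 CPM in 7c and to 2458 to 2937 CPM in vehicle kidneys, most of it Cyp2e1. Of them Cps1 was 0.138 ± 0.151 CPM with 7c and 1.14 ± 0.441 CPM with vehicle (SD, n = 6 and 4). The log2 fold change of Cps1 was -2.99 (unadjusted p 0.00195, adjusted p 0.997 in edgeR). The part of any of these cell types in the Atf4 values was not tested.

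Ddit3 encodes CHOP, the transcription factor linked to cell death under lasting ER stress. The vehicle kidneys held 11.3, 24.6, 8.88 and 7.65 CPM, and the 7c kidneys 9.59, 13.0 and 26.6 CPM as lowest, median and highest. High libraries stood in both groups, 7c replicates 4 and 5 at 20.3 and 26.6 CPM and vehicle replicate 2 at 24.6 CPM. The log2 fold change of 0.26 (SE 0.35) was smaller than its error. It was 0.045 without 7c replicate 5 and 0.76 without vehicle replicate 2. In liver the vehicle values were 9.17, 6.88, 5.57 and 5.15 CPM and the 7c values 5.02, 6.07 and 7.59 CPM, with a log2 fold change of -0.11 (SE 0.19). The Ddit3 locus overlaps other annotated genes, Gm20492 on the same strand and Mars1 on the opposite one, and how the counting treated shared reads is not given in the sources used here.

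Trib3 encodes a pseudokinase that is a target of ATF4 and CHOP and feeds back on them. It measured 5.87, 6.22, 2.47 and 5.32 CPM in the vehicle livers and 2.28, 5.88 and 13.7 CPM (lowest, median, highest) in the 7c livers. The 7c livers spread on both sides, with 3 above every vehicle liver and 1 below, and the log2 fold change was 0.42 (SE 0.42, 95% interval -0.48 to 1.31). Leaving out 7c replicate 5 brought it to 0.072 and leaving out 7c replicate 2 to 0.60. In kidney it was scarce, 0.523 to 1.45 CPM with vehicle and 0.626 to 1.76 CPM with 7c, on 20 to 68 counts a library. The log2 fold change there was -0.16 (SE 0.39), ranging from -0.40, leaving out vehicle replicate 1, to -0.028, leaving out vehicle replicate 2.

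Asns, which encodes asparagine synthetase, was barely present in liver. The vehicle livers held 26, 6, 46 and 4 counts, and the 7c livers 0 to 106. The highest was 7c replicate 3 with 3.52 CPM and the lowest 7c replicate 5 with 0 counts, which allows up to 3 counts by counting error alone. The log2 fold change of 0.71 (SE 0.97) turned to -0.28 without 7c replicate 3. In kidney the values were tighter, 2.88, 3.01, 3.69 and 3.91 CPM with vehicle and 2.34, 3.74 and 4.53 CPM with 7c, with a log2 fold change of 0.11 (SE 0.21). It ranged from 0.035, leaving out 7c replicate 4, to 0.21, leaving out 7c replicate 2. Chac1, an enzyme that breaks down glutathione, had 14 to 108 counts in liver and 17 to 61 in kidney. Its log2 fold change in liver was 0.41 (SE 0.50) and -0.049 without 7c replicate 6, the library with 108 counts. In kidney it was 0.28 (SE 0.38), with 0.14 when vehicle replicate 3 was left out and 0.67 when vehicle replicate 2 was.

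Hspa5 encodes BiP, the main Hsp70 chaperone of the ER and the gene most used as a readout of ER stress. The vehicle livers measured 1119, 695, 648 and 676 CPM, and the 7c livers 693, 796 and 874 CPM as lowest, median and highest. Vehicle replicate 1 stood alone above all other livers, and all 6 7c livers lay within the vehicle range. The log2 fold change was 0.015 (SE 0.15, 95% interval -0.30 to 0.33) and became 0.24 without vehicle replicate 1. In kidney the vehicle values were 516, 361, 397 and 367 CPM and the 7c values 365, 446 and 522 CPM, and the log2 fold change was 0.091 (SE 0.14, 95% interval -0.22 to 0.40), ranging from 0.033 without 7c replicate 3 to 0.22 without vehicle replicate 1.

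Of the other ER genes, 3 were also highest in vehicle replicate 1 among the livers. The exception was Xbp1, the transcription factor spliced by IRE1, which ran from 148 to 240 CPM with 7c and from 168 to 212 CPM with vehicle in liver. Its log2 fold change was -0.0052 (SE 0.13) in liver and 0.042 (SE 0.16) in kidney. The counts do not separate its spliced from its unspliced form. Sdf2l1, a partner of ERdj3 and BiP in folding, measured 56.9, 28.3, 28.8 and 37.0 CPM in the vehicle livers and 27.0, 33.6 and 55.1 CPM in the 7c livers. Creld2, an ER protein induced with the chaperones, measured 60.7, 21.9, 25.5 and 29.6 CPM in the vehicle livers and 27.2, 32.2 and 49.5 CPM in the 7c livers. For both, vehicle replicate 1 was again the highest liver, and the log2 fold changes were 0.019 (SE 0.23) and 0.0031 (SE 0.26). Without that library they were 0.29 and 0.43. Dnajb9 encodes ERdj4, a BiP co-chaperone that restrains IRE1, and was 145, 76.7, 86.6 and 48.4 CPM in the vehicle livers and 57.4, 68.1 and 89.9 CPM in the 7c livers. Its log2 fold change of -0.33 (SE 0.23) became 0.0062 without vehicle replicate 1. In kidney the log2 fold changes were 0.25 (SE 0.22) for Sdf2l1, 0.18 (SE 0.15) for Creld2 and -0.22 (SE 0.27) for Dnajb9. That of Sdf2l1 was 0.086 without vehicle replicate 3 and 0.39 without vehicle replicate 2, that of Creld2 was 0.083 without vehicle replicate 3, and that of Dnajb9 was -0.041 without vehicle replicate 1 and -0.41 without vehicle replicate 2.

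**Figure D2:**
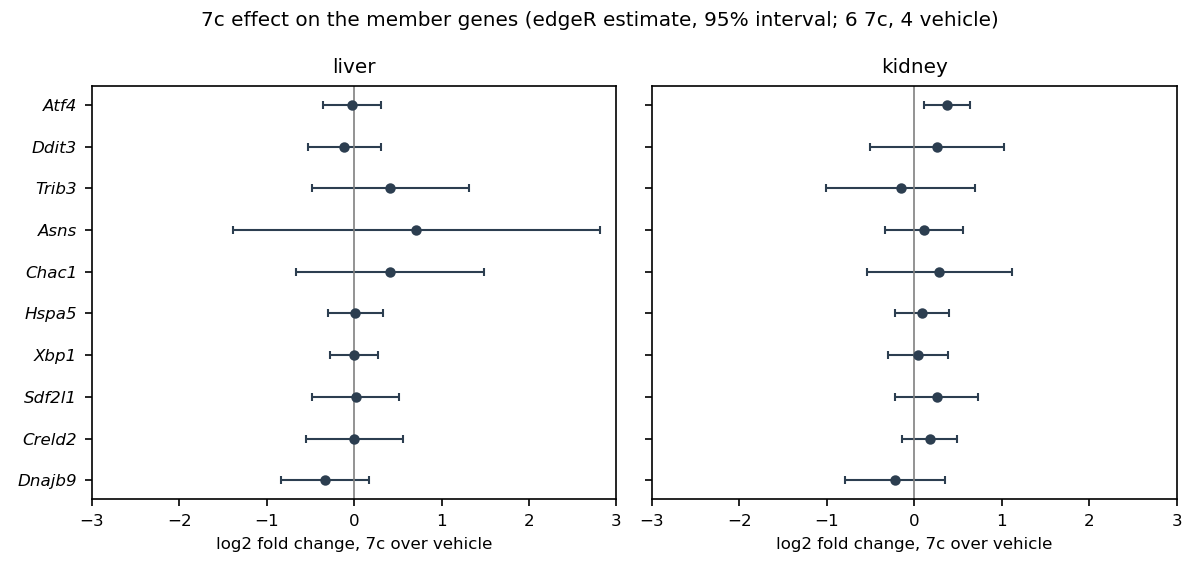
Estimated log2 fold change of 7c over vehicle (x axis) for each gene (y axis) in liver and kidney, with 95% intervals from edgeR's quasi-likelihood fit (6 7c and 4 vehicle libraries per tissue). Each liver interval spans 0; in kidney only that of Atf4, from 0.11 to 0.63, lies to one side, before adjustment over all genes. The widest interval is that of Asns in liver, from -1.39 to 2.81.

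The precision of the null result differed by gene. The 95% intervals allowed at most a change of 0.40 on the log2 scale in either direction for Hspa5 in both organs, and of 0.38 for Xbp1. For Sdf2l1 they allowed 0.73 and for Creld2 0.56, whereas for Trib3, Chac1 and Asns in liver they reached 1.31, 1.48 and 2.81. In kidney they reached 1.02 for Ddit3, 1.11 for Chac1 and -1.005 for Trib3. The more abundant Dnajb9 reached -0.83 in liver and -0.80 in kidney. A p that misses the threshold does not show that the groups were alike for these transcripts.

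The wider pathway was described with 8 lists of other genes, 120 in all: stress sensors and eIF2 factors, transcription factors and targets of the integrated stress response, amino acid supply, tRNA synthetases, ER chaperones and oxidases, ER-associated degradation, ER translocation and export, and mitochondrial chaperones. In liver 0 of 115 tested passed the adjusted threshold, with 4 at an unadjusted p under 0.05 (all genes: 3.76%), all higher with 7c, and a median log2 fold change of 0.041 against 0.0017 over all genes. In kidney 0 of 117 passed, with 3 at an unadjusted p under 0.05 (all genes: 2.61%), all higher, and a median of 0.026 against -0.0057. These counts are near the share over all genes, and the genes behind them are named with their values only. The gene of smallest p in liver was Cebpb, a partner of ATF4, at 31.7 ± 8.23 CPM with 7c and 19.8 ± 7.00 CPM with vehicle (SD, n = 6 and 4). Its log2 fold change was 0.68 (SE 0.22, adjusted edgeR p 1.00). In kidney it was Atf3, another stress-induced factor, at 1.93 ± 0.688 CPM with 7c and 0.851 ± 0.368 CPM with vehicle. Its log2 fold change was 1.17 (SE 0.36, unadjusted p 0.00731, adjusted edgeR p 0.997), and in liver it was -0.68. The other 3 in liver were Gpt2, of alanine metabolism, at 0.44 (SE 0.16), Sec61b, a subunit of the ER translocon, at 0.29 (SE 0.12), and Selenok, an ER selenoprotein, at 0.24 (SE 0.11). The other 2 in kidney were Cebpb at 0.55 (SE 0.20) and Slc1a5, a glutamine carrier, at 0.43 (SE 0.16). Herpud1, an ER degradation factor induced with the chaperones, had 270 ± 57.8 CPM with 7c and 237 ± 23.5 CPM with vehicle in kidney, a log2 fold change of 0.19 (SE 0.16). Other lists without a p under 0.05 had as gene of smallest p, in kidney, Ern1 (-0.29), Yme1l1 (-0.16), Yars1 (0.21), Ppib (0.29) and Sec61b (0.26). In liver these were Txndc11 (-0.25), Lars1 (-0.16), Eif2ak4 (0.27) and Hspe1 (0.28). Of all list genes tested, 72 were positive and 43 negative in liver, and 62 and 55 in kidney.

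The 10 genes were lower in kidney more often than all genes tested. Among vehicle mice, 7 of the 10 passed the adjusted threshold between kidney and liver, 6 lower in kidney and 1 higher. Of all 17245 genes tested, 53.4% passed as well, so that a difference as such is common, and 25.7% passed with the lower level in kidney. Between organs, libraries were scaled together, and the vehicle libraries are the same ones used against 7c. Levels of Sdf2l1 were 70.4, 36.0, 35.0 and 44.97 CPM in the vehicle livers and 7.21, 8.33, 4.12 and 6.63 CPM in the vehicle kidneys. No kidney reached any liver, and the log2 fold change was -2.82 (SE 0.27, adjusted edgeR p 7.99e-06), 7.08-fold lower in kidney. Trib3 followed with 7.26, 7.91, 3.00 and 6.46 CPM in liver and 0.416, 1.16, 1.10 and 1.03 CPM in kidney, a log2 fold change of -2.73 (SE 0.40, adjusted p 0.000226 in edgeR).

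Dnajb9 fell by 1.80 on the log2 scale from liver to kidney (SE 0.33), from 179, 97.6, 105 and 58.8 CPM to 42.7, 18.2, 37.1 and 28.6 CPM. Hspa5 fell by 1.57 (SE 0.21), from 1384 at the highest and 786 at the lowest liver to 410 at the highest and 290 at the lowest kidney. Xbp1 fell by 1.36 (SE 0.13) and Atf4 by 1.07 (SE 0.12), in both of which every kidney lay below every liver. The adjusted p of these 4 was 0.000965 for Dnajb9, 8.59e-05 for Hspa5, 7.28e-06 for Xbp1 and 1.65e-05 for Atf4 in edgeR's quasi-likelihood test. Plasma cell markers, of a secretory cell rich in Xbp1, summed to 43.5 to 154 CPM in the vehicle livers and 327 to 922 CPM in the vehicle kidneys on within-tissue scaling. Of 6 tested, 3 were higher in kidney (Igha, Igkc and Jchain) and 1 lower. The latter was Ighm at 22.8 ± 19.7 CPM in kidney against 86.0 ± 57.0 CPM in liver with libraries scaled together (SD, n = 4 and 4, adjusted edgeR p 0.0313). Their part in these values was not tested.

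Asns went the other way. It measured 1.06, 0.219, 1.59 and 0.142 CPM in the vehicle livers and 2.29, 2.42, 2.93 and 3.12 CPM in the vehicle kidneys, and every kidney exceeded every liver. The log2 fold change was 1.83 (SE 0.63, adjusted edgeR p 0.0332), and the call was lost without liver replicate 2 (adjusted p 0.0702) or without kidney replicate 1, 3 or 4 (0.0530, 0.0683 and 0.0780). Chac1 at -1.28 (SE 0.55, adjusted p 0.0748 in edgeR), Creld2 at -0.62 (SE 0.29, 0.0955) and Ddit3 at 0.34 (SE 0.37, 0.462) did not pass. With all 20 libraries all 3 passed in edgeR (adjusted p 0.000553, 0.00468 and 0.0210), as they did with a block per treatment and replicate number (0.00232, 0.00187 and 0.0378). Chac1 also passed by edgeR's likelihood ratio test (0.0409) and without liver replicate 3 (0.0167) or kidney replicate 2 (0.0497), and Creld2 without liver replicate 2 (0.0456). Without liver replicate 1 the log2 fold change of Creld2 was -0.21, and without kidney replicate 2 that of Ddit3 was -0.060. Creld2 measured 75.0, 27.9, 30.9 and 35.9 CPM in liver, and its highest kidney, at 31.3 CPM, lay above 2 of the 4 livers. Scaling by library size alone put the median of all genes 0.66 higher in kidney, against 0.058 with TMM factors. Under it the log2 fold change of Atf4 was -0.46, of Creld2 -0.0087 and of Ddit3 0.92, the last with an adjusted p of 0.0309.

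In the ER lists nearly all genes that passed were lower in kidney. Of 118 tested genes of the 8 lists, 80 passed between the organs (67.8%), 65 lower in kidney (55.1%) and 15 higher (12.7%). Over all genes tested, 53.4% passed and 25.7% passed as lower in kidney. Of 23 ER chaperones and oxidases, 16 were lower and 1 higher, with a median log2 fold change of -1.02. Txndc5 and Ero1b, both factors of disulfide formation, had log2 fold changes of -1.65 (SE 0.12) and -1.80 (SE 0.13), and Hsp90b1, the ER Hsp90, one of -1.47 (SE 0.15). Of 16 degradation factors, 12 were lower and 0 higher, with Derl2, a Derlin of the ER membrane, at -1.80 (SE 0.15) and Sel1l, the adaptor of the Hrd1 ligase, at -1.11 (SE 0.18). Of 18 translocation and export genes, 12 were lower and 0 higher, led by Sec63 at -1.59 (SE 0.12) and Sec24d at -2.66 (SE 0.28). Among sensors and eIF2 factors, 7 of 12 were lower and 1 higher, and Ern1, which encodes IRE1, was at -2.65 (SE 0.19) and Atf6 at -1.30 (SE 0.16).

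The lists of amino acid supply, of transcription factors and targets and of tRNA synthetases held passing genes of both directions. So did all genes, of which 53.4% passed and 25.7% were lower in kidney. Of 17 genes of amino acid supply, 7 were higher in kidney and 3 lower, a count near that share, with a median log2 fold change of 0.55. Slc3a2, a subunit of amino acid carriers, and Slc1a5 rose by 1.95 (SE 0.15) and 2.90 (SE 0.29) from liver to kidney, and Gpt2, an alanine aminotransferase, and Cth, of cysteine synthesis, were at -2.77 (SE 0.15) and -2.45 (SE 0.19). Of 12 transcription factors and targets, 4 were higher and 6 lower. Atf5 fell by 5.69 (SE 0.14), from 470 ± 46.8 to 9.11 ± 1.20 CPM (SD, n = 4 and 4), and Sesn2 rose by 3.04 (SE 0.18). Of 13 tRNA synthetases, 7 were lower and 2 higher, with a median of -0.55 and with Tars1 falling by 3.10 (SE 0.11). Of 7 mitochondrial chaperones and proteases, 2 were lower and 0 higher. Each value named in both paragraphs had an adjusted p of 0.000351 or less in edgeR's quasi-likelihood test.

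**Figure D3:**
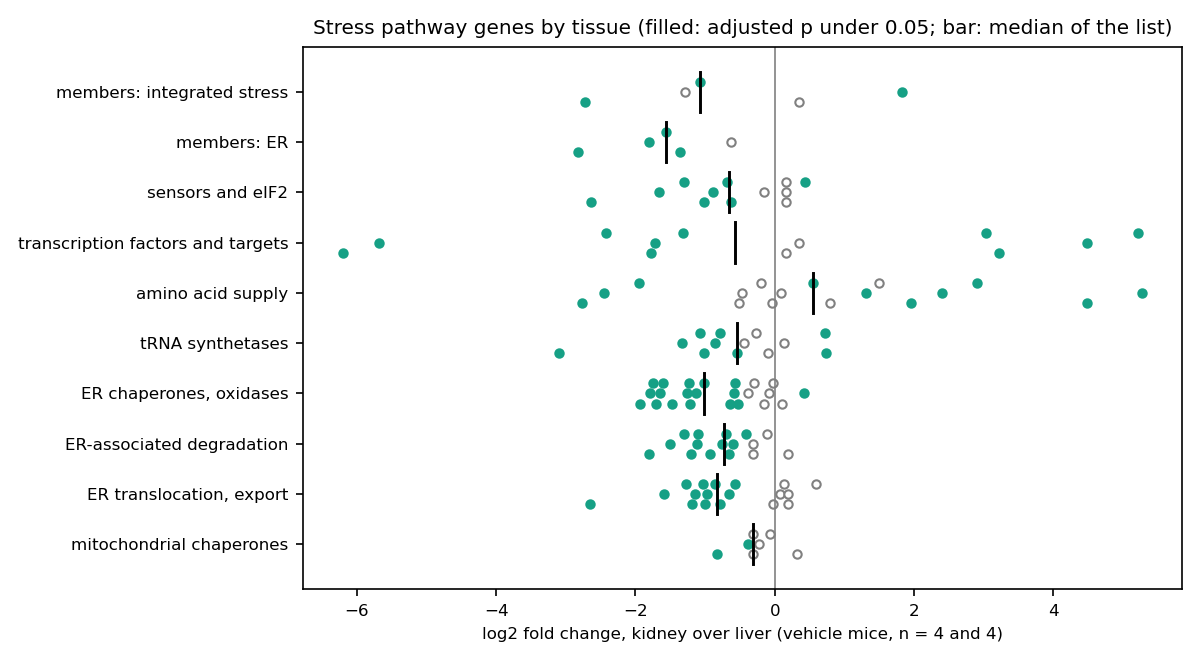
Log2 fold change of kidney over liver in vehicle mice (x axis) for the genes described here and 8 lists of other stress pathway genes (y axis), 1 point per gene, filled where the adjusted p of edgeR's test was under 0.05, with the median of each list as a bar (4 livers and 4 kidneys). The ER lists lie mostly left of 0, with medians of -1.02 for chaperones, -0.73 for degradation and -0.82 for translocation, and the amino acid supply list spreads over both sides with a median of 0.55.

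Per length of the canonical transcript the same 3 genes led in both organs. Counts are by gene, and the merged exons of a gene can be longer than that transcript. They measure 6931 against 1969 bases for Xbp1 and 5579 against 979 for Ddit3, but 1113 in both cases for Sdf2l1. The order below therefore holds for the canonical length only. With CPM divided by the length of the canonical transcript in kilobases, the vehicle livers had Hspa5 at 196 ± 56.5, Xbp1 at 120 ± 12.2 and Atf4 at 76.8 ± 6.54 (SD, n = 4). Dnajb9 at 44.8, Sdf2l1 at 41.9 and Creld2 at 30.3 followed, with ranges that overlap one another, and that of Dnajb9 overlaps that of Atf4 too. Ddit3 at 8.45, Trib3 at 2.95, Chac1 at 0.924 and Asns at 0.153 were the scarce ones, of which Chac1 and Asns overlap in range. In vehicle kidneys Hspa5 at 66.1, Xbp1 at 46.7 and Atf4 at 36.5 again led without overlap. Creld2 at 19.6, Dnajb9 at 12.9, Ddit3 at 10.7 and Sdf2l1 at 5.91 followed, each overlapping its neighbour, and Asns, Trib3 and Chac1, at 0.549, 0.444 and 0.377, could not be ordered.

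Across the 10 livers, the 10 pairs among the 5 ER genes had a Pearson r of log2 CPM from 0.33 to 0.91 with a median of 0.61, of which 1 passed an adjusted p of 0.05 for r and 0 for rho. Without the 2 livers farthest from the median, r was negative for Xbp1 with Sdf2l1 (-0.11), Sdf2l1 with Dnajb9 (-0.098) and Creld2 with Dnajb9 (-0.26). The 10 pairs among the integrated stress genes had a median of 0.12, from -0.72 to 0.46. Of 90 pairs in both tissues, 2 passed an adjusted p of 0.05 for r in a permutation test with 100000 resamples, both in liver. They were Hspa5 with Creld2, the pair that holds ERSE, at r = 0.91 and Spearman's rho = 0.76 (adjusted permutation p 0.0216 for r and 0.321 for rho, n = 10), and Ddit3 with Dnajb9 at r = 0.88 and rho = 0.76 (adjusted permutation p 0.0400 and 0.321, n = 10). The unadjusted permutation p of r was 0.00024 and 0.00089, and of rho 0.0143 and 0.0148. Without the 2 livers farthest from the median of the first gene, r was 0.82 and 0.65, and within the 6 7c livers 0.84 and 0.93. Without vehicle replicate 1, the liver that was highest for Hspa5, r was 0.83 and 0.74 and neither pair passed (adjusted permutation p 0.311 and 0.314). Leaving out replicate 1, 2, 4 or 5 of 7c also left 0 pairs past the threshold, and leaving out 7c replicate 3 or vehicle replicate 2 or 4 left 1. With treatment means subtracted, both passed with r of 0.91 and 0.88. For Sdf2l1 with Creld2, r was 0.75 (rho 0.67, adjusted permutation p 0.207 and 0.321, n = 10) and 0.19 without the 2 farthest livers.

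Atf4 and Trib3 had a negative correlation in liver (r = -0.72, rho = -0.68, adjusted permutation p 0.207 and 0.321, n = 10), a relation that did not pass and that fell to -0.47 without the 2 livers farthest from the median. In 7c replicate 5 Trib3 had its highest value, 13.7 CPM, and Atf4 its lowest, 75.9 CPM.

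Among 9380 liver genes of at least 5 CPM, the 5 with the pattern most like Hspa5 were Creld2 (r = 0.91), Hyou1 (0.91), Srprb (0.89), Rrbp1 (0.89) and Cnpy3 (0.87), over 10 libraries. Hyou1 is an ER chaperone, Srprb a subunit of the receptor that docks ribosomes at the ER, and Rrbp1 a ribosome-binding protein of the rough ER. Of the 100 most alike, 13 belonged to the stress genes and lists, which made up 1.16% of all genes compared, and for Creld2 11 did. For the other 8 genes the count in liver was 0 to 6. For Sdf2l1 the nearest were Srpk1 (0.95), Skil (0.90), Hsp90aa1 (0.90), Gm16573 (0.90) and Slc25a30 (0.89), and 4 of its 100 came from the lists. Trib3 was nearest to Parn (0.94), Ftcd (0.93), Bfar (0.92), BC048644 (0.91) and Tspan12 (0.91). Asns was nearest to Got1 (0.88), Parl (0.88), Pole4 (0.87), Timm23 (0.87) and Pld3 (0.86), with 1 and 2 of their 100 from the lists. These are descriptions over the same 10 libraries, in which total counts differ between the groups, and the highest of 9380 values are large by selection.

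**Figure D4:**
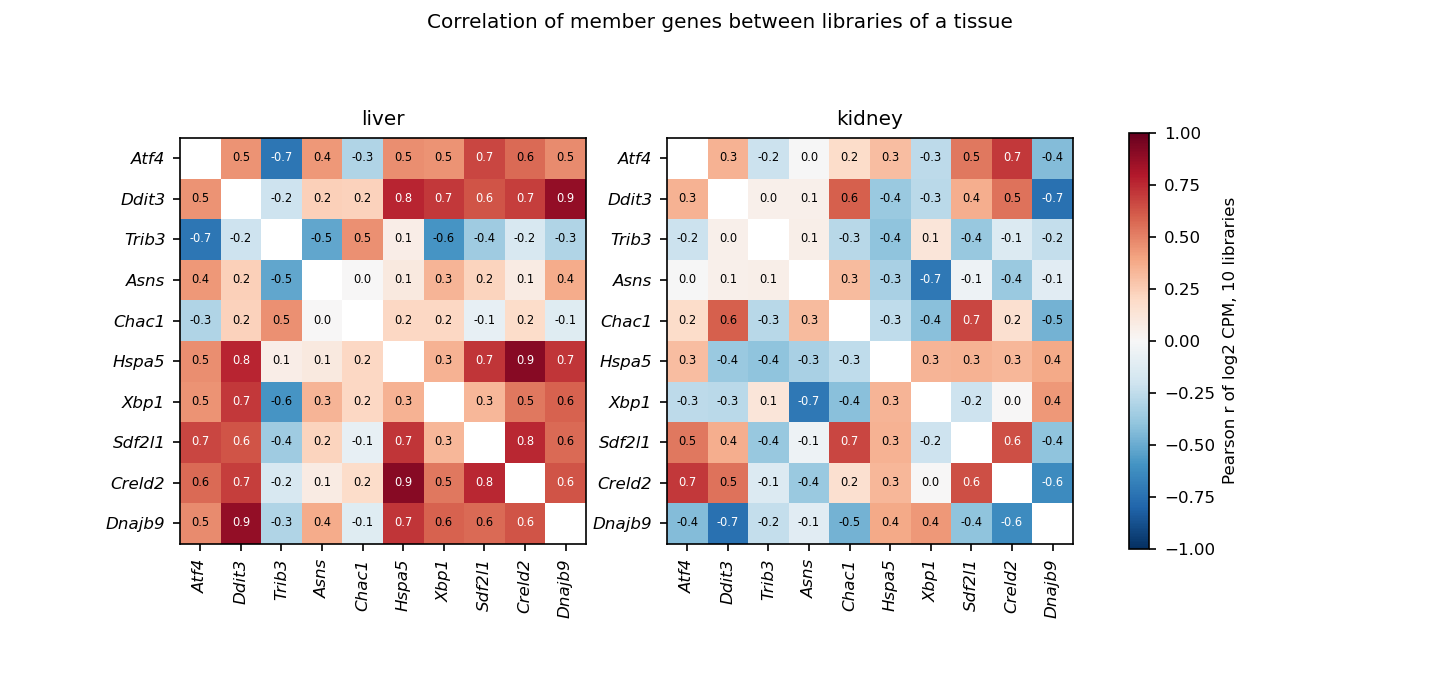
Pearson r of log2 CPM between each pair of the 10 genes over the 10 livers (left) and 10 kidneys (right), on a colour scale from -1 (blue) to 1 (red). In liver the 10 pairs of ER genes run from 0.33 to 0.91, of which Hspa5 with Creld2 passed the adjusted threshold, and in kidney Ddit3 with Dnajb9 is at -0.74, which did not pass.

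In kidney, 7 of the 10 ER pairs had a positive r and the median was 0.34. Whether the organs differ in these correlations was not tested. No kidney pair passed for r. By rho Asns with Xbp1 passed, at rho = -0.92 and r = -0.72 (adjusted permutation p 0.0486 for rho and 0.207 for r, n = 10), with r of -0.51 without the 2 farthest kidneys. Ddit3 and Dnajb9 had a negative correlation in kidney that did not pass (r = -0.74, rho = -0.66, adjusted permutation p 0.207 and 0.321, n = 10). Both followed the first principal component of the kidney libraries, which held 40.5% of the variance, with r of 0.91 for Ddit3 and -0.94 for Dnajb9. The 100 kidney genes most like Ddit3 had a median canonical transcript of 1770.5 bases and the 100 most like Dnajb9 one of 4604.5 bases, against 3415 over all genes compared. The part of transcript length in these patterns was not tested. Of the 100 kidney genes most alike, 5 came from the stress genes and lists for Hspa5 and 4 each for Creld2 and Sdf2l1, where these made up 1.05% of all genes compared, and 0 to 2 did for the other 7. Near Hspa5 in kidney were Ywhah (0.93), Hmgcs1 (0.93), Hnrnpf (0.91), Bicd1 (0.91) and Hsp90aa1 (0.91). Near Sdf2l1 were 1600020E01Rik, Nop14, Hirip3, Ugt2b37 and Ptpru (0.91 to 0.86), near Asns A730020M07Rik, Chd1l, Fignl2, Parp11 and 1600014C10Rik (0.93 to 0.87), and near Trib3 Cxcl14, Ubxn10, Zscan26, Itga5 and Msh3 (0.85 to 0.81).

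The time of tissue collection is not given in the labels, and a clock gene differed between libraries. Dbp, an output of the circadian clock, was 23.9, 46.4 and 93.1 CPM in 7c livers 4, 5 and 6 and 0.266 to 5.14 CPM in the other 7 livers, and Bmal1 was 4.95 to 18.5 CPM in those 3 and 26.2 to 40.0 CPM in the others. The 7c kidneys 4, 5 and 6 had Dbp at 93.8 to 116 CPM against 6.44 to 36.5 CPM in the others. Trib3 in 7c livers 4, 5 and 6 was 8.20, 13.7 and 7.04 CPM, and the other 7 livers held 2.28 to 6.22 CPM. Atf4 in these 3 livers was 112, 75.9 and 79.6 CPM against 94.8 to 135 CPM in the others. Hspa5 in 7c kidneys 4, 5 and 6 was 365 to 416 CPM and 361 to 522 CPM in the other 7. In liver the ranges of Atf4, Ddit3, Asns, Chac1, Hspa5, Xbp1, Sdf2l1, Creld2 and Dnajb9 overlapped between these 3 libraries and the rest. In kidney those of all the genes described here overlapped, with Trib3 at 0.626 to 1.76 CPM against 0.523 to 1.45 CPM. The 3 libraries were set apart by their Dbp values, and the share of all genes that separate in the same way was not counted. The part of clock phase in the values was not tested.

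**Figure D5:**
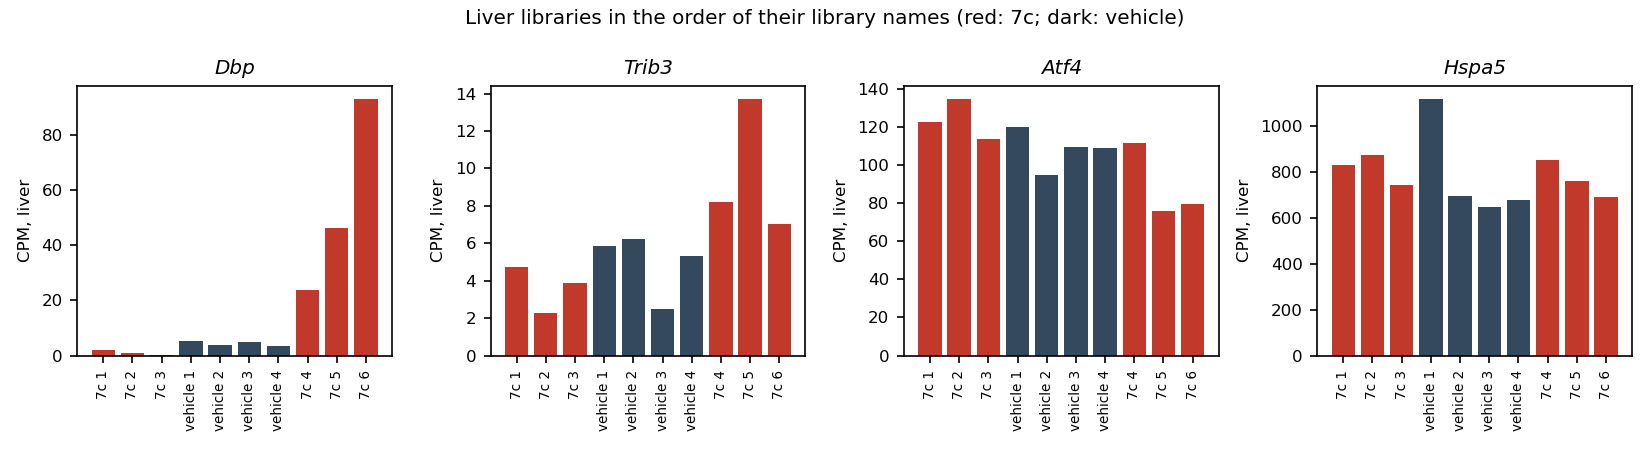
CPM (y axis, linear, from 0) of Dbp, Trib3, Atf4 and Hspa5 in each liver, ordered by library name, red for 7c and dark for vehicle. Dbp and Trib3 are highest in 7c replicates 4 to 6, Atf4 is lowest in 7c replicates 5 and 6, and Hspa5 is highest in vehicle replicate 1 with 1119 CPM.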

How the data were processed

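Polyadenylated RNA of 10 livers and 10 kidneys was sequenced as stranded libraries. According to the submitters' processing notes the authors used STAR 2.7.11b, featureCounts 2.0.6 and GRCm39; the strand and multi-gene settings are not given in the sources used here. The authors deposited whole-number counts, neither normalised nor filtered, for 57010 Ensembl identifiers, and all 20 columns were mapped to a sample by library name. Among values of 1 to 20 counts, 75.1% to 83.2% were even numbers, against 51.6% to 59.4% of values of 1000 to 5000 (whether both mates of a pair were counted is not given), and halved counts were tried.

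Symbols, positions and transcript lengths came from GENCODE vM39 (56309 identifiers matched). A gene was tested where 50% or more of the libraries compared held 10 counts or more, after the study's own filter, with TMM factors and edgeR 4.0.16 (quasi-likelihood F-test, Benjamini-Hochberg, threshold 0.05, R 4.3.3), for 7c against vehicle in each tissue, treatment by tissue, and kidney against liver in vehicle mice. CPM are scaled by TMM within a tissue, or over all 20 libraries between tissues. For correlations CPM were log2-transformed (prior count 2). Few counts limit the precision for Asns, Chac1 and Trib3. Alternatives were RLE factors, DESeq2 1.42.0, limma-voom (limma 3.58.1), the likelihood ratio test, other filters, replicate blocks, other library sets, leave-one-out and, added after the data were seen, halved counts, library size alone, and a tissue fit with a block per treatment and replicate number. The fits were tested on simulated data. Named genes were the 10 genes, up to 5 of each other list past the threshold or else its gene of smallest p, and the 5 genes most like Hspa5, Sdf2l1, Trib3 and Asns; Adipoq, Bmal1 and, in kidney, Cebpb were added after their values were seen. The genes and lists were chosen with earlier results of these data known. One list gene, Srpr, had no match. The labels call replicates biological.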

Additional observations from a re-analysis of the deposited data

Results flagged for a closer look

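Of 40 groups of 4 or 6 libraries, 5 held a library far from the rest, where chance flags about 1 in 20 groups. Hspa5 in liver vehicle replicate 1 was 1119 CPM, with the other vehicle livers at 648 to 695 CPM. Asns in liver 7c replicate 3 was 3.52 CPM on 106 counts, and Chac1 in liver 7c replicate 6 was 3.90 CPM on 108 counts. In kidney, Chac1 in vehicle replicate 2 was 1.34 CPM on 48 counts and Trib3 in vehicle replicate 1 was 0.523 CPM on 20 counts, the lowest of its group. Liver 7c replicate 6 also held skeletal muscle markers at a summed 606 CPM, against a median of 0.801 CPM in the 7c livers, and the part of these in its Chac1 value was not tested.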

How the results depend on the processing

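The counts of genes passing for 7c in liver, in kidney and between organs were 0 under every alternative run, including each library left out, though DESeq2 gave no adjusted p for 6 of the 10 in the last. The count between organs in vehicle mice was 7, ranged from 6 to 8 with a library left out, was 8 by the likelihood ratio test and with library size alone, and was 10 with all 20 libraries, with or without a block per treatment and replicate number. Liver and kidney libraries of the same number deviated together with a correlation over 0.1 in 7 of 10 cases, the lowest being 0.0114, and 8 of 10 livers correlated best with the kidney of their own number. This is a hint from the data that numbers may mark the mouse, but the labels do not say so and not every correlation was over 0.1, so the block was kept as an alternative. With the replicate number as a block, 7 genes passed between organs and 0 for 7c.

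Of the 90 pairs, 2 passed for r, 1 by rho, and 0 to 2 with a replicate number left out of both tissues. Directions that turned were all of uncalled values. With the replicate block, the liver log2 fold change was 0.16 for Atf4, -0.11 for Trib3 and 0.021 for Xbp1, and that of Trib3 in kidney 0.014. With library size alone it was -0.0061 for Hspa5 and -0.0028 for Creld2 in liver, and without a filter 0.0079 for Xbp1. Leaving out a library gave, in liver, -0.11 to 0.055 for Atf4, -0.22 to 0.074 for Ddit3, -0.28 to 1.41 for Asns, -0.049 to 0.63 for Chac1, -0.062 to 0.24 for Hspa5, -0.081 to 0.060 for Xbp1, -0.11 to 0.29 for Sdf2l1, -0.16 to 0.43 for Creld2 and -0.53 to 0.0062 for Dnajb9, and in kidney -0.034 to 0.13 for Xbp1. Without a change of sign it gave 0.072 to 0.60 for Trib3 in liver and, in kidney, 0.045 to 0.76 for Ddit3, 0.086 to 0.39 for Sdf2l1, -0.41 to -0.041 for Dnajb9, 0.14 to 0.67 for Chac1, -0.40 to -0.028 for Trib3, 0.033 to 0.22 for Hspa5, 0.083 to 0.24 for Creld2 and 0.035 to 0.21 for Asns. For the difference of effect between organs it gave -1.25 to 0.40 for Asns, -0.46 to 0.36 for Chac1, -0.0077 to 0.15 for Hspa5, -0.18 to 0.39 for Creld2 and -0.048 to 0.28 for Dnajb9, and between organs -0.060 to 0.56 for Ddit3 and -0.79 to -0.21 for Creld2. The cause was not tested.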

Other observations

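Other gene groups were counted in the same fits. The 6 cytosolic heat shock genes had a median log2 fold change for 7c of 0.44 in kidney (all genes: -0.0057), where 6 of 6 were positive. In liver it was 0.39 (all genes: 0.0017), where 5 of 6 were. In edgeR's quasi-likelihood test 0 of 6 passed the adjusted threshold in either tissue. At an unadjusted p of 0.05 the count was also 0 of 6 in both (all genes: 2.61% in kidney and 3.76% in liver). Hspa1a, an inducible Hsp70, was 21.8 ± 19.2 CPM with 7c and 9.85 ± 4.41 CPM with vehicle in kidney (SD, n = 6 and 4). Of 12 genes of feeding and fasting, 0 of 12 tested in liver and 0 of 11 in kidney passed. Only 1, Fasn in kidney, had an unadjusted p under 0.05 (all genes: 2.61%), at 191 ± 78.8 CPM with 7c and 118 ± 6.69 CPM with vehicle. Of 11 clock genes, 0 passed in either tissue. At an unadjusted p under 0.05 there were 2 in liver, Dbp and Per3 (all genes: 3.76%), and 0 in kidney (all genes: 2.61%).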
